A study of Populus euphratica with 12 samples.

Results

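The annotated miRNAs of Populus euphratica with high family numbers were examined in 4 leaf types. They were the miRNAs matched to a miRBase name, with a family number of 1000 or more, except miR1444 and miR2111. This rule, which uses names and no measured value, took 45 of the 257 miRNAs listed in each library. They belonged to 38 families, and 44 carried the Populus trichocarpa prefix ptc and 1, peu-miR2916, the P. euphratica prefix peu.

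P. euphratica is a desert poplar whose leaf shape changes as the tree grows, and the study asked how small RNAs differ between these leaf shapes. Juvenile leaves of linear shape (Li) came from trees of 0 to 3 years, lanceolate leaves (La) from trees of 4 to 6 years, ovate leaves (Ov) from trees of 8 to 12 years and broad-ovate leaves (Bo) from trees over 20 years old. Each leaf type had 3 libraries, named biological replicates, and it is not stated whether these came from separate trees. P values then measure only the spread between these samples. All trees grew in the same locality, and the labels give no treatment. Leaf type and tree age changed together and cannot be told apart. Since whole leaves were used, fewer cells of a type and less RNA per cell cannot be told apart either.

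The values are reads scaled to a total of 1e+06 over the listed miRNAs (RPM). The libraries held 199583 (Bo1) to 632114 (Ov1) such reads, and a single read thus stood for 1.58 RPM at the highest depth and 5.01 RPM at the lowest. A count of 0 allows up to 3 reads, that is 4.75 to 15.0 RPM, counting error only. The conserved ptc-miR156a, which is known to decline from juvenile to adult shoots, was at 3822 ± 1188 RPM in Li (SD, n = 3), followed by La at 1305 ± 343, Ov at 635 ± 169.4 and Bo at 161.8 ± 41.0 RPM, in the order of the labelled tree ages.

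Plant miRNAs are cut from hairpin precursors, and either arm of the hairpin (5p or 3p) can be loaded into ARGONAUTE and guide the silencing of matching mRNAs. A core of families is shared by most land plants. Many others are found only in a single lineage such as poplars and their relatives. These younger miRNAs are often weakly expressed and have few known targets, so a role is given below only where it is established. Family numbers follow the order of registration, so a high number is only a guide to a narrow distribution among plants.

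The high-numbered miRNAs were mostly low. The median of their 12-library means was 8.86 RPM, against 139 RPM for the 91 conserved miRNAs, 58.1 RPM for the 30 other annotated miRNAs and 29.2 RPM for the 91 predicted miRNAs. A mean of at least 100 RPM was reached by 9 of 45 (20%), against 48 of 91 conserved miRNAs (52.7%) and 30 of 91 predicted miRNAs (33.0%). The predicted miRNAs were found from reads of these same libraries, so enough reads here were a condition of their listing. Their level and detection are thus not an independent comparison. The range of the high-numbered miRNAs was wide, from 0.132 RPM to 29570 RPM for ptc-miR6445a. By family, 4 were of miR1446 to miR1450, 3 of miR2916 and miR3627, 30 of miR6421 to miR6476 and 8 of miR7812 to miR7840. Reads were matched to miRBase entries with 0 mismatches, and 44 of the 45 entries carried the P. trichocarpa prefix. Reads that differ from an entry by a base would not be counted for it. Low expression and reads lost in this way cannot be told apart here, for level or for detection.

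**Figure D1:**
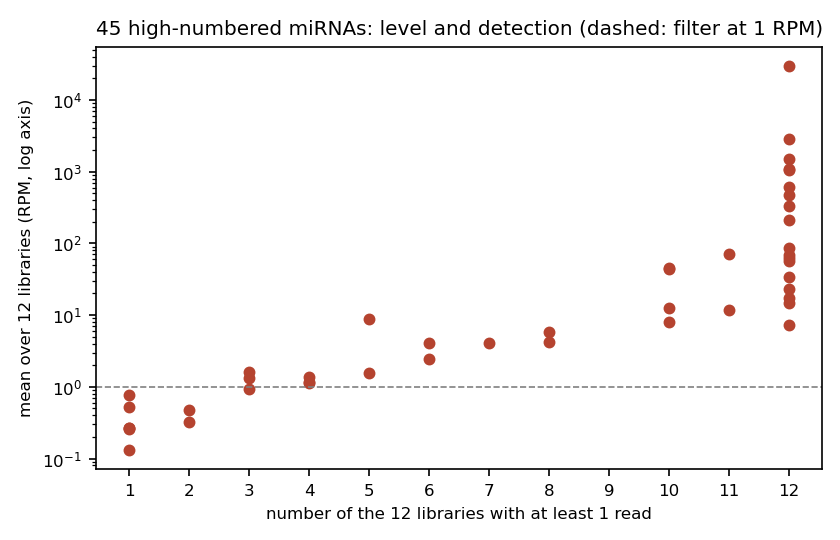
Mean level over the 12 libraries (RPM, log axis) against the number of libraries with at least 1 read, with 1 point for each of the 45 miRNAs and a dashed line at the filter of 1 RPM. The 18 miRNAs found in every library spanned the upper range to 29570 RPM, and the 9 below the line had 1 to 4 reads in all libraries together.

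Reads of 18 of the 45 (40%) were found in all 12 libraries. The share was 60.4% for the conserved, 56.7% for the other annotated and 56.0% for the predicted miRNAs, which were predicted from these same libraries. Of the 45, Li had at least 1 read of 35, La of 33, Ov of 38 and Bo of 37, and 28 were found in every leaf type. No miRNA had reads in Li alone, 1 had reads in La alone, 2 in Ov alone and 4 in Bo alone. These 7 had 1 to 4 reads each. At a minimum of 10 reads in a library, 22 were found, 13 of them in every leaf type. A total of 27 had fewer than 100 reads over the 12 libraries.

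The combined level of the high-numbered miRNAs was 3.83% of all listed reads, against 80.7% for the conserved miRNAs. By library (replicates 1 to 3), Li gave 5.21, 4.40 and 4.96%, La 2.93, 5.66 and 1.83%, Ov 2.22, 4.88 and 2.15% and Bo 3.71, 3.64 and 4.35%. The mean share was 4.86 ± 0.413% for Li, 3.47 ± 1.97% for La, 3.09 ± 1.56% for Ov and 3.90 ± 0.390% for Bo (SD, n = 3). The 3 Li libraries were close to each other, as were the 3 Bo libraries, whereas La and Ov each held 1 library above the range of Bo and 2 below it. The Wilson 95% interval, for counting error only, was 5.57 to 5.75% for La2 and 1.79 to 1.87% for La3.

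Most of this share was ptc-miR6445a, which gave 77.2% of the combined level and ranked 6 among all listed miRNAs. In poplar, miR6445 is known to target transcripts of NAC transcription factors. It was at 42764, 37576 and 32434 RPM in Li, 25122, 45300.2 and 13733 RPM in La, 12504, 38661 and 17114 RPM in Ov, and 28304, 27395 and 33935 RPM in Bo. The Li and Bo libraries were even. La2 and Ov2 were as high as the Li libraries, while the other La and Ov libraries were below all Li and Bo libraries. The group means were 37591 ± 5165, 28052 ± 15986, 22759.7 ± 13962 and 29878 ± 3543 RPM. No pair of leaf types passed the test (limma F test over the 4 leaf types, adjusted p = 0.502), and the Bo/Li difference of -0.33 on the log2(RPM + 1) scale had a 95% interval of -1.26 to 0.60. Without ptc-miR6445a, the other 44 miRNAs summed to 10963 ± 5546 RPM for Li, 6676 ± 3998 RPM for La, 8098 ± 3222 RPM for Ov and 9112 ± 387 RPM for Bo.

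**Figure D2:**
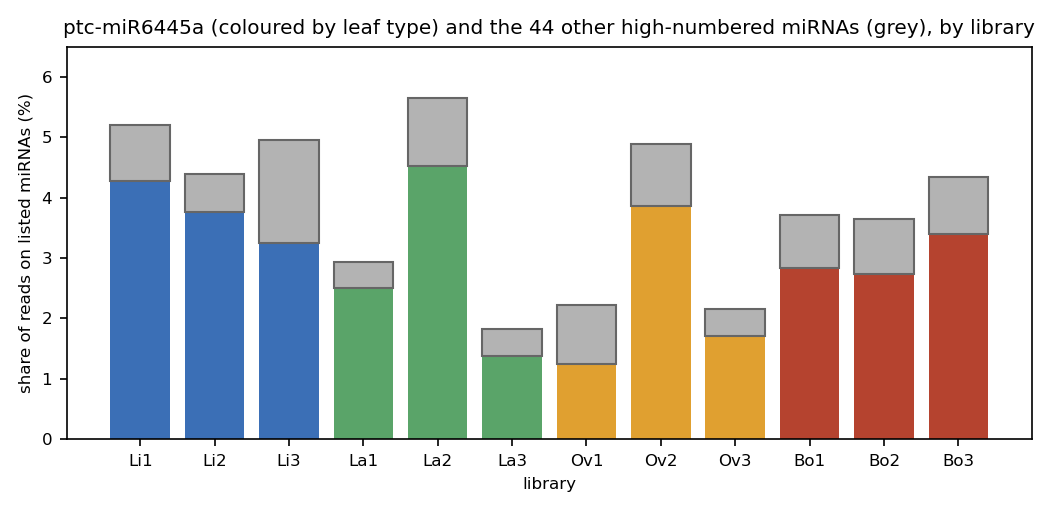
Share of reads on listed miRNAs (%) taken in each library by ptc-miR6445a (coloured by leaf type) and by the 44 other high-numbered miRNAs (grey). ptc-miR6445a gave between 56.3% (Ov1) and 85.8% (La1) of the bar, and the bars of La and Ov differed more among replicates than those of Li and Bo.

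The 6 pairs of leaf types were compared by limma on log2(RPM + 1) with all 12 libraries in 1 fit. Fold changes below are differences on this scale, which can understate or overstate the change of miRNAs with few reads. Those that averaged 1 RPM or more were tested (216, among them 36 of the 45), and a difference was called at an unadjusted P under 0.05, the threshold printed by the study. The p given with each difference below is the limma p with Benjamini-Hochberg adjustment over the 216 miRNAs, so a called difference can carry an adjusted p above 0.05. A low miRNA enters the test more easily if it is high in 1 leaf type, so counts over the tested miRNAs are descriptions.

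Of the 36, 10 were called in La/Li (7 higher, 3 lower in La), where 14.8% of all tested miRNAs were called. In Ov/Li, 8 were called (5 higher, 3 lower; 23.1% of all tested), and in Bo/Li also 8 (22.2% of all tested). The Bo/Li calls were 6 higher in Bo, where 12.5% of all tested miRNAs were called, and 2 lower, where 9.72% were. The fewest calls were in Ov/La, with 1 call (1.85% of all tested). Bo/La gave 7 calls (3 higher, 4 lower; 13% of all tested) and Bo/Ov gave 6 (4 higher, 2 lower; 14.4% of all tested). In any of the 6 pairs, 18 of 36 were called, and 41.7% of all tested miRNAs were.

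The median log2 difference of the 36 was 0.24 in La/Li, 0.38 in Ov/Li and 0.14 in Bo/Li, against 0.08, -0.003 and 0.09 over all 216. The median size of the difference, whatever its sign, was 1.11 in La/Li against 0.65 over all, and 0.87 in Bo/Li against 0.82 over all. Levels differed too, with a median of means of 8.86 RPM for the 45 against 31.9 RPM for all 257 listed. Counting error widens differences more at low levels, so these sizes are descriptions. The F test over the 4 leaf types called 12 of 36 (23.1% of all tested). After adjustment, 4 of 36 were called in some pair (13.9% of all tested), and by the F test 1 was (5.09% of all tested), ptc-miR6462c-5p. The 4 were ptc-miR3627b, ptc-miR6424, ptc-miR6462c-5p and peu-miR2916. By pair, the adjusted calls were 1 in La/Li, 2 in Ov/Li, 2 in Bo/Li and 1 in Bo/La. The adjusted limma calls were 0 in Ov/La and 0 in Bo/Ov, where 1 and 6 passed the unadjusted threshold. Li and Bo values did not overlap for 10 of 36, and for 31.5% of all tested miRNAs.

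**Figure D3:**
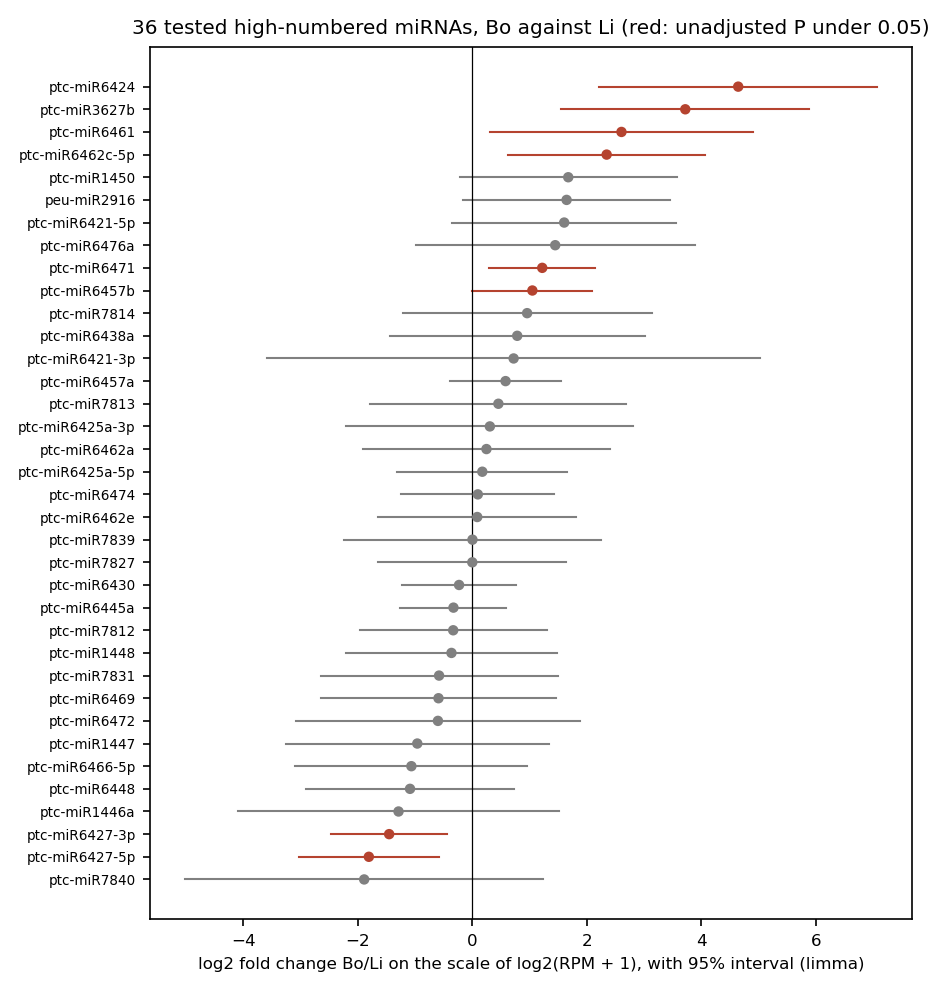
Bo/Li difference on the log2(RPM + 1) scale with its 95% interval from limma for each of the 36 tested miRNAs, in red where the unadjusted P was under 0.05. Of the 8 in red, 6 lay to the right (higher in Bo) and the arms of ptc-miR6427 to the left.

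Both arms of ptc-miR6427 had their highest mean in Li and their lowest in Bo, which for the 5p arm was close to Ov. The 3p arm was at 1709, 1637 and 1479.6 RPM in Li, 1291, 1858 and 623 RPM in La, 1090.0, 1183 and 497 RPM in Ov and 691, 389 and 750.4 RPM in Bo. Li and Bo did not overlap, while the La and Ov libraries reached from the Bo range up to or near the Li range. Its mean was 1608 ± 117 RPM in Li and 610.1 ± 194 RPM in Bo, a log2 difference of -1.45 (SE 0.47, adjusted p = 0.0593). This call was kept without each library in turn, with differences of -1.63 to -1.16.

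The 5p arm of ptc-miR6427 was at 1107, 966 and 646 RPM in Li, 452, 657 and 165 RPM in La, 278, 413 and 170.2 RPM in Ov and 241, 155 and 430.1 RPM in Bo. Ov and Bo lay wholly below Li, and La reached Li only through La2. The log2 difference was -1.27 in La/Li (SE 0.57, adjusted p = 0.321), -1.71 in Ov/Li (SE 0.57, adjusted p = 0.0982) and -1.81 in Bo/Li (SE 0.57, adjusted p = 0.0539). The La/Li call was lost without Li1, Li2, La3, Ov1 or Bo1, and the difference was -0.70 without La3. The 3p arm exceeded the 5p arm in every library. The ratio of the 3p to the 5p arm was lowest in Li1 at 1.54 and highest in Ov1 at 3.91. Across the 12 libraries the log2 levels of both arms went together (r = 0.91, n = 12, a description over libraries that share depth and scaling). With ptc-miR1446a, which had 21 reads in all, the arms of ptc-miR6427 were the 3 miRNAs whose group means were lower at each step from Li through La and Ov to Bo. ptc-miR6421-5p and ptc-miR6457b were the 2 whose means were higher at each step. These 5 of 36 stand beside 18.1% of all 216 tested miRNAs with ordered means. The list with higher means depended on the scale. With RLE scaling (median ratios to a reference library) neither was ordered and ptc-miR1450 was the only one with higher means at each step, and with means of log2(RPM + 1) ptc-miR6424 was ordered as well. The 3 with lower means at each step were ordered in all 3 ways. For ptc-miR6427-5p the last step was small, with a Bo/Ov difference of -0.096 that was not called. Leaving out 1 library gave -0.48 (without Bo3) to 0.25 (without Bo2).

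ptc-miR3627b, ptc-miR6424 and ptc-miR6462c-5p were lowest in Li and higher in the other leaf types. miR3627 is known in grapevine and fruit trees for targeting a calcium-transporting ATPase. ptc-miR3627b was at 0, 9.35 and 33.7 RPM in Li (0, 4 and 14 reads), 59.7, 56.0 and 167.3 RPM in La, 60.1, 70.6 and 109 RPM in Ov and 100.2, 120.1 and 65.9 RPM in Bo. Every library of the other leaf types was above every Li library. The log2 difference to Li was 3.55 in La (SE 1.004, adjusted p = 0.0933), 3.46 in Ov (adjusted p = 0.0638) and 3.72 in Bo (SE 1.004, adjusted p = 0.0332). Bo, Ov and La did not differ beyond their spread, with a Bo/La difference of 0.17 and a 95% interval of -1.997 to 2.33. The pooled reads of Bo exceeded those of Li by a factor of 5.99 after scaling (exact 95% interval 3.56 to 10.6, for counting error only). The factor was 4.43 without Li1 and 17.1 without Li3. The Bo/Li call was kept without each library, at 2.30 without Li1 and 4.86 without Li3. Only 1 read in all was assigned to the second entry of the family, ptc-miR3627a, and the rule by which reads fitting both entries were divided is not known here.

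ptc-miR6424 had 4, 0 and 0 reads in Li (13.5, 0 and 0 RPM). It was at 16.1, 18.7 and 97.0 RPM in La, 47.5, 13.4 and 156.3 RPM in Ov and 45.1, 63.2 and 75.4 RPM in Bo. All La and Bo libraries were above Li, and Ov2 was level with Li1. The log2 difference to Li was 3.72 in La (SE 1.13, adjusted p = 0.129), 4.30 in Ov (adjusted p = 0.0492) and 4.64 in Bo (adjusted p = 0.0246). By pooled reads the Bo level was 18.1 times that of Li (exact 95% interval 6.66 to 68.8, counting error only), and 11.3 and 11.5 times without Li2 or Li3. Its Bo/Li call was kept without each library, at differences of 4.00 to 5.93.

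ptc-miR6462c-5p showed the smallest P among the 36 tested and was higher in La than in Li and Bo. It was at 6.75, 2.34 and 7.23 RPM in Li (2, 1 and 3 reads), 62.0, 175 and 94.5 RPM in La, 23.7, 175 and 39.1 RPM in Ov and 20.0, 56.9 and 21.98 RPM in Bo. Every Li library was below every other library. The difference to Li on the log2 scale was 4.09 in La (SE 0.80, adjusted p = 0.0190), 3.23 in Ov (adjusted p = 0.0417) and 2.35 in Bo (adjusted p = 0.0737). The Bo call was lost without Bo2. Bo was below La by a log2 difference of -1.75 (adjusted p = 0.375), with no overlap, and this call was lost without any of Li1, Li3, La2, La3, Ov3, Bo1 or Bo3. By pooled reads, the ratio of La to Li was 19.2 (exact 95% interval 8.56 to 53.5, counting error only).

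**Figure D4:**
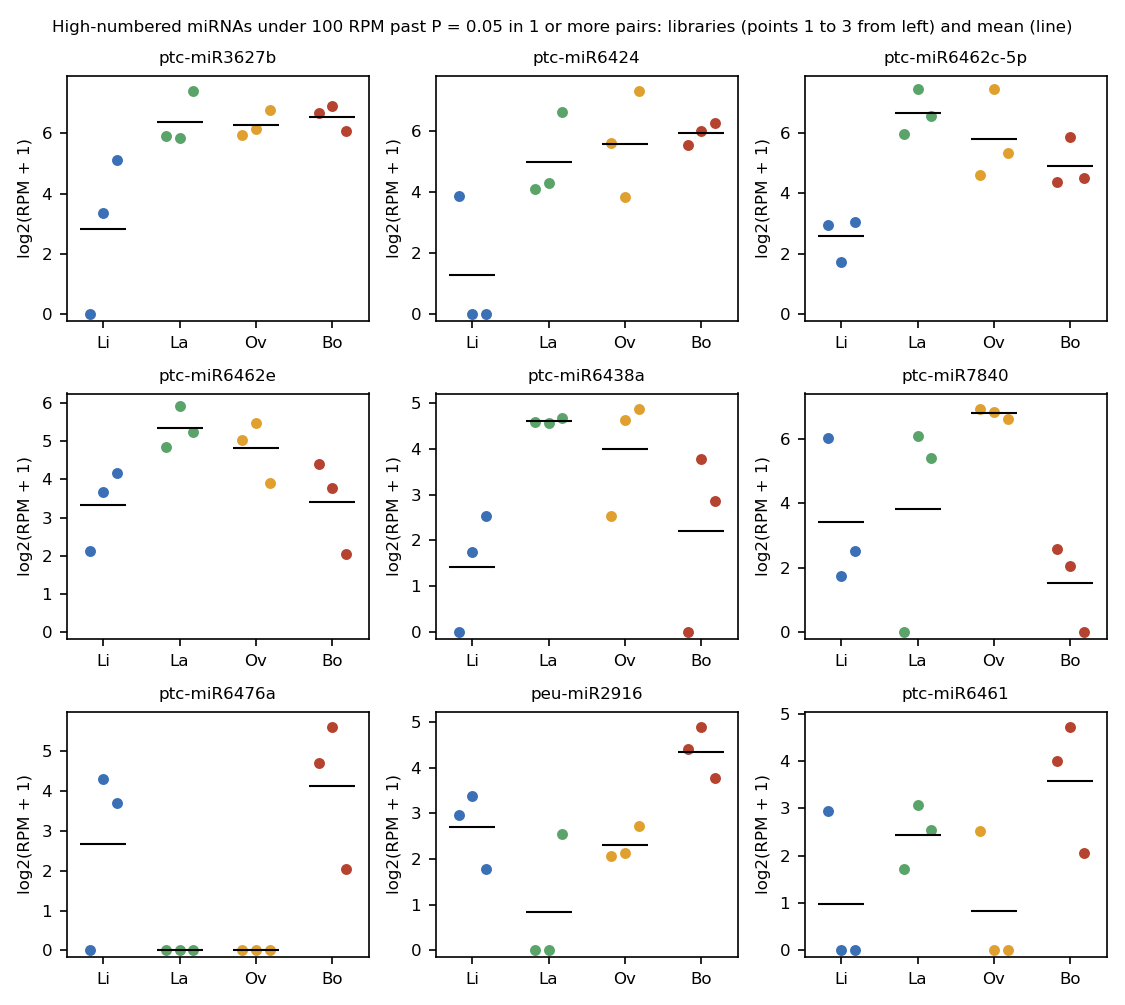
Levels on the log2(RPM + 1) scale of 9 high-numbered miRNAs with a mean below 100 RPM and a call in 1 or more pairs, with a point for each library (replicates 1 to 3 from left) and a line at the group mean. The first row was lowest in Li, the second row was highest in La or Ov, and the third row was highest in Bo, with ptc-miR6476a at 0 in all 6 La and Ov libraries.

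ptc-miR6471 and ptc-miR6457b were abundant in Li and higher in Bo. ptc-miR6471 was at 564, 222 and 275 RPM in Li, 650.0, 720.1 and 815 RPM in La, 375, 608 and 661 RPM in Ov and 957, 825 and 556 RPM in Bo. La was above all of Li, and Bo3 was just below Li1. The log2 difference was 1.15 in La/Li (SE 0.43, adjusted p = 0.227) and 1.22 in Bo/Li (SE 0.43, adjusted p = 0.0837). The first call was lost without Li2 or Li3 and the second without Li2 or Bo1.

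The miR6457 pair moved differently by entry. ptc-miR6457b was at 925, 505 and 578 RPM in Li, 367, 933 and 1270.3 RPM in La, 1691, 699 and 1488 RPM in Ov and 1353, 1441 and 1231 RPM in Bo. Bo was above Li without overlap, and La and Ov were spread over both ranges. The Bo/Li difference of 1.05 (SE 0.49, adjusted p = 0.223) was at the threshold and was kept in 4 of the 12 fits that left out 1 library.

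ptc-miR6457a was at 378, 339 and 243 RPM in Li, 310.1, 422 and 305 RPM in La, 88.6, 232 and 223 RPM in Ov and 541, 505 and 383 RPM in Bo. It was lowest in Ov, whose libraries lay below all others. The log2 difference was 1.498 in Bo/Ov (SE 0.45, adjusted p = 0.112), kept without each library. It was -1.04 in Ov/La (SE 0.45, adjusted p = 0.951), the only Ov/La call, lost without La1, La2 or Ov1 and -0.59 without Ov1. ptc-miR6457b exceeded ptc-miR6457a in every library. The ratio of b to a was between 1.19 (La1) and 4.16 (La3) in La, between 3.01 (Ov2) and 19.1 (Ov1) in Ov, between 1.49 and 2.45 in Li and between 2.5 and 3.21 in Bo. The division of shared reads between both entries is not given, so the separate levels are uncertain.

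**Figure D5:**
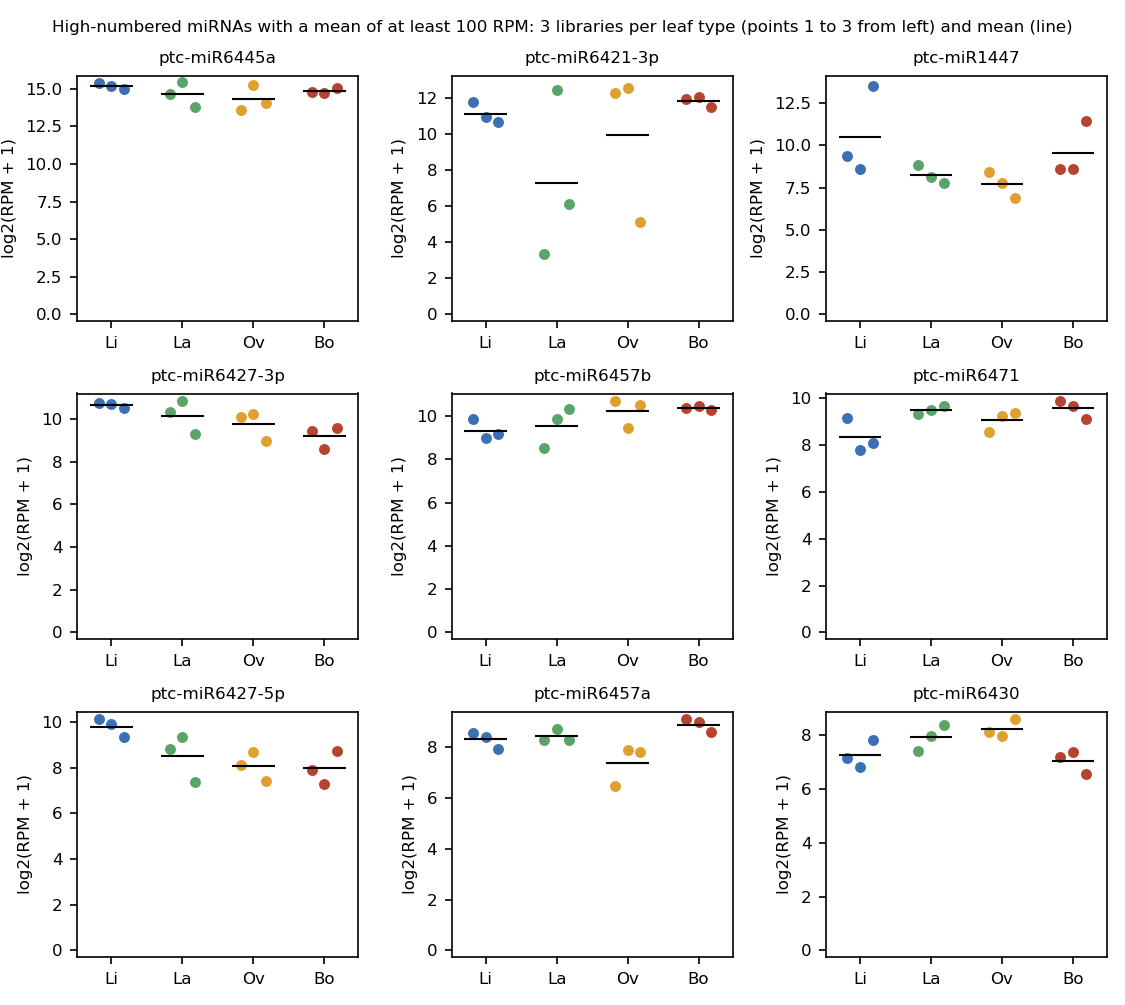
Levels on the log2(RPM + 1) scale of the 9 high-numbered miRNAs that averaged 100 RPM or more, with a point for each library (replicates 1 to 3 from left) and a line at the group mean. Both arms of ptc-miR6427 were lower in Bo than in Li, while ptc-miR6421-3p was at 9.19 RPM in La1 and ptc-miR1447 at 11741 RPM in Li3, far from the other replicates.

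ptc-miR6462e, ptc-miR6438a, ptc-miR6430 and ptc-miR7840 were highest in the intermediate leaf types, La or Ov. ptc-miR6462e was at 3.38, 11.7 and 16.9 RPM in Li, 27.6, 59.7 and 36.4 RPM in La, 31.6, 43.7 and 14.0 RPM in Ov and 20.0, 12.6 and 3.14 RPM in Bo. La was above all of Li and all of Bo. The log2 difference was 2.01 in La/Li (SE 0.80, adjusted p = 0.269) and -1.92 in Bo/La (SE 0.80, adjusted p = 0.350). The first was lost without Li1 or La2 and the second without La2, La3 or Bo3, at -1.25 without Bo3. Like ptc-miR6462c-5p, this entry of the miR6462 family was higher in La than in Li. The third entry, ptc-miR6462a, had 6 reads in all. How reads fitting several of these entries were divided is not given, so their separate levels are uncertain.

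ptc-miR6438a was at 0, 2.34 and 4.82 RPM in Li (0, 1 and 2 reads), 23.0, 22.4 and 24.2 RPM in La, 4.75, 23.5 and 27.9 RPM in Ov and 0, 12.6 and 6.28 RPM in Bo. The La libraries were nearly equal and above all of Li and Bo. The log2 difference was 3.17 in La/Li (SE 1.03, adjusted p = 0.143), 2.57 in Ov/Li (adjusted p = 0.152) and -2.39 in Bo/La (adjusted p = 0.363). The Ov/Li call was lost without Li1, Ov2 or Ov3, and the Bo/La call without Bo1 or any La library, at -1.28 without Bo1. By pooled reads the La level was 8.84 times that of Li (exact 95% interval 2.71 to 45.7, counting error only). The ratio was 6.54 without Li1 and 16.9 without Li3, which leaves 1 read in Li.

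ptc-miR6430 was at 142, 112 and 229 RPM in Li, 172.3, 250.0 and 329.7 RPM in La, 282, 249 and 390.7 RPM in Ov and 145, 164.3 and 94.2 RPM in Bo. Ov was above all of Li and Bo. The Bo/Ov difference was -1.20 (SE 0.46, adjusted p = 0.252) and was lost without Ov3 or Bo3. The Ov/Li difference of 0.96 was not called (adjusted p = 0.232).

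ptc-miR7840 was even in Ov and nearly absent from Bo. It was at 64.2, 2.34 and 4.82 RPM in Li, 0, 67.2 and 41.2 RPM in La, 120.2, 114 and 97.7 RPM in Ov and 5.01, 3.16 and 0 RPM in Bo. Each Ov library was above every other library, and Li and La each mixed low with higher libraries. Bo had 2 reads in all and Ov 145, a ratio of Ov to Bo of 47.0 after scaling (exact 95% interval 12.8 to 392, counting error only). The ratio was 71.5 without Bo1 and 29.1 without Bo3. The Bo/Ov difference was -5.25 (SE 1.45, adjusted p = 0.0807) and was kept without each library. The Ov/Li difference of 3.36 (adjusted p = 0.174) was lost without Li2, Li3, Bo2 or any Ov library. ptc-miR7827 was also called higher in La than in Li and lower in Bo than in La (adjusted p = 0.187 and 0.206). It had 5 reads in all, 4 of them in La and 0 in Li and Bo. With a mean of 1.13 RPM over the 12 libraries, it passed the filter of 1 RPM only through La. Both calls are therefore descriptions and give no support for a difference. With 3 reads as the limit of a count of 0, the counted La level was 1.36 times that limit of Li. It was 0.997 times that limit of Bo, so the La level was not beyond it. Against Li it was 0.850 times the limit without Li2 and 0.865 times without Li3, so not beyond it there either.

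ptc-miR6476a and peu-miR2916 were lowest in La and Ov or in La, and highest in Bo. ptc-miR6476a was at 0, 18.7 and 12.0 RPM in Li (0, 8 and 5 reads), at 0 in all 3 La and all 3 Ov libraries, and at 25.1, 47.4 and 3.14 RPM in Bo (5, 15 and 1 reads). It was thus found in the youngest and the oldest trees and not in those between, at this depth. A count of 0 was given a limit of 3 reads over the group. The counted level in Bo was 9.36-fold this limit in La and 10.8-fold this limit in Ov. These bounds, and those below, leave out the counting error of the higher group. Of the 21 reads in Bo, 15 were in Bo2. Without Bo2 the bounds were 4.31-fold over La and 4.97-fold over Ov, and without Bo3 they were 14.4-fold and 16.6-fold. Leaving out a library of the leaf type at 0 also lowered them, to 5.71-fold without La1, 5.90-fold without La3 and 5.50-fold without Ov1. Both differences were called (adjusted p = 0.0648 and 0.0807) and were kept without each library. For Li the bounds were 4.25-fold over La and 4.90-fold over Ov (adjusted p = 0.286 and 0.168), and 2.62-fold and 3.02-fold without Li2. They were 2.59-fold over La without La1, 2.68-fold without La3 and 2.496-fold over Ov without Ov1. The La/Li and Ov/Li calls were each lost without Li2, Li3 or any library of the leaf type at 0.

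peu-miR2916 was at 6.75, 9.35 and 2.41 RPM in Li, 0, 0 and 4.85 RPM in La, 3.16, 3.36 and 5.58 RPM in Ov and 20.0, 28.4 and 12.6 RPM in Bo (4, 9 and 4 reads). Every Bo library was above all others in RPM, although Li2 also held 4 reads, as many as Bo1 and Bo3. The log2 difference was 3.50 in Bo/La (SE 0.84, adjusted p = 0.0314), kept without each library, and 2.04 in Bo/Ov (adjusted p = 0.286), lost without Ov1, Ov2, Bo1 or Bo2. The La/Li difference of -1.85 (adjusted p = 0.321) was kept in 5 of the 12 fits that left out 1 library. The Bo/Li difference of 1.65 was not called (adjusted p = 0.273). By pooled reads the ratio of Bo to La was 11.4 (exact 95% interval 2.70 to 101, counting error only). It was 6.93 without La1. Without La3 no read is left in La, and the counted Bo level was 4.78-fold the limit of 3 reads.

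ptc-miR6461 rested on single reads. It had 2, 0 and 0 reads in Li, 1, 2 and 2 in La, 3, 0 and 0 in Ov and 3, 8 and 1 in Bo. Bo overlapped with Li and with Ov, and Bo2 stood highest. The differences of 2.60 in Bo/Li (SE 1.06, adjusted p = 0.158) and 2.75 in Bo/Ov (adjusted p = 0.252) were lost without Bo1 or Bo2. Leaving out Li2 or Li3 also ended the first call, and leaving out Ov2 or Ov3 the second.

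A few abundant miRNAs differed more within than between leaf types. ptc-miR6421-3p was at 3441, 1934 and 1609.8 RPM in Li, 9.19, 5414 and 67.9 RPM in La, 4874, 5854 and 33.5 RPM in Ov and 3838, 4297 and 2914 RPM in Bo. Li and Bo were even, whereas La1, La3 and Ov3 held 4, 28 and 12 reads and lay far below their replicates. The highest library was 637 times the lowest. The Bo/La difference of 4.54 (SE 1.999, adjusted p = 0.363) was lost without La1, La3 or any Bo library, and was between 2.57 without La1 and 7.10 without La2.

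The 5p arm of the same precursor, ptc-miR6421-5p, was at 84.4, 16.4 and 16.9 RPM in Li, 43.6, 89.5 and 31.5 RPM in La, 152, 101 and 11.2 RPM in Ov and 100.2, 91.6 and 78.5 RPM in Bo. Its La1 and La3 libraries were not as far below La2 as in the 3p arm. The ratio of the 3p to the 5p arm was 0.21 in La1, 2.15 in La3 and 3 in Ov3, and 32.1 to 118 in the other libraries. No pair of leaf types was called for the 5p arm.

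ptc-miR1447 was at 665, 383 and 11741 RPM in Li, 452, 276 and 213 RPM in La, 339, 222 and 117 RPM in Ov and 390.8, 382 and 2719 RPM in Bo. Li3, with 4872 reads, and Bo3, with 866 reads, stood above all other libraries. All Ov libraries were below all Li libraries, with a log2 difference of -2.80 (SE 1.07, adjusted p = 0.137). Without Li3 it was -1.29 and not called, and the call was also lost without Ov3.

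The arms of ptc-miR6425a were low and were called in no pair. The 5p arm was at 27.0, 21.04 and 7.23 RPM in Li, 11.5, 26.1 and 7.27 RPM in La, 17.4, 20.2 and 16.7 RPM in Ov and 25.1, 15.8 and 15.7 RPM in Bo. The 3p arm had 17 reads in all and was found in 7 of 12 libraries. The 5p arm was thus the higher arm here, unlike in ptc-miR6427 and in most libraries of ptc-miR6421.

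The other 14 tested miRNAs were called in no pair, with 5 to 370 reads in all and means of 1.16 to 85.7 RPM. The closest to a call was ptc-miR1450 in Bo/Li (adjusted p = 0.286), whose means were 28.3, 65.5, 65.3 and 88.7 RPM in Li, La, Ov and Bo. ptc-miR6474, the most abundant of them, had means of 98.9, 67.2, 64.1 and 112 RPM. ptc-miR1448, which in poplar is made from a transcript shared with miR482, had means of 10.6, 22.8, 17.9 and 7.53 RPM. That no pair was called does not show that these miRNAs were level across leaf types.

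The 9 untested miRNAs had 1 to 4 reads. With 1 read each, ptc-miR3627a, ptc-miR6440a, ptc-miR6456 and ptc-miR6460 were each seen in a single library. ptc-miR6431, ptc-miR6473 and ptc-miR7823 had 2 reads each. ptc-miR6447 had 4 reads, all in Ov, and ptc-miR6463 had 4, all in La1.

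Of the 40 called differences of these miRNAs, all kept their sign under every alternative in which they were tested, and 19 stayed past the unadjusted threshold without each library in turn. A filter at a mean of 10 RPM leaves 11 of the 40 untested. Under every alternative, this filter included, 13 stayed past the threshold, and 4 more did so wherever they were tested. Of the 18 miRNAs called in any pair, 10 had a mean below 100 RPM and 5 had fewer than 100 reads in all.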

How the data were processed

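Small RNA libraries of 4 leaf types (3 each) were analysed. The authors aligned reads to miRBase version 21 with 0 mismatches, predicted further miRNAs with miRDeep2, and deposited RPM values (named TPM by them) for 257 miRNAs per library. How reads were trimmed, which miRDeep2 release was run and how reads matching more than 1 entry were counted: not given in the sources used here. No sequence or position of the annotated miRNAs was used here.

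Each library sums to 1e+06, and each value was a whole multiple (tolerance 0.001) of the smallest value, taken as 1 read. These reads served for depth, detection and exact counting intervals of pooled reads. With 76 to 93 values of 1 to 20 reads per library, under the 100 needed, no count model was fitted to them. log2(RPM + 1) was tested with limma 3.58.1 (R 4.3.3) with a variance trend, 2-sided, over the 216 miRNAs averaging 1 RPM or more, in 1 fit of 4 group means, for 6 pairs and an F test. The step was run on simulated reads with the same dispersion for every miRNA. That simulation does not cover miRNAs that differ widely between replicates, such as ptc-miR6421-3p and ptc-miR1447. Tables and figures were made with Python 3.11.15, numpy 2.4.6, pandas 2.3.3, scipy 1.17.1 and matplotlib 3.10.9.

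The miRNAs, classes and rules were chosen with earlier results of these data known. Named were those called in any pair, those with a mean of at least 100 RPM, both arms of precursors listed with 2 arms, and 3 examples of the group (ptc-miR6427-3p, ptc-miR6424 and ptc-miR3627b). Others named were chosen after their values were seen. Conserved miRNAs were the widely shared plant families such as miR156, miR166 and miR396. Alternatives were the pseudocount, the filter, the scaling, the trend, fits of 6 libraries, the replicate number as a block and each library left out. Same-numbered libraries of La and Ov deviated together from their group means (r = 0.25, 0.52 and 0.50). In the other 5 pairs not all 3 correlations were over 0.1. The labels state no pairing, libraries with unlike numbers were not compared in this way, and the cause was not tested. No library was a copy of another (smallest chi-square per degree of freedom over 66 pairs, 42.4).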

Additional observations from a re-analysis of the deposited data

How the results depend on the processing

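The 40 called differences kept their sign under each setting in which they were tested. The filter at 10 RPM leaves 11 of them untested, 13 stayed past the threshold under every setting, and 4 more did so in all settings but that filter. Requiring an adjusted p under 0.05 left 1 call among the high-numbered miRNAs in La/Li, 2 in Ov/Li, 2 in Bo/Li, 0 in Ov/La, 1 in Bo/La, 0 in Bo/Ov and 1 over the 4 leaf types. The single Ov/La call became 2 with a pseudocount of 0.1, 2 with a pseudocount of 10, 3 without a filter, 2 without a variance trend and 0 in a fit of the 6 libraries alone. A mean of at least 10 RPM, which removes low miRNAs, left 3 calls in Bo/La and 3 in Bo/Ov. With the replicate number as a block and all 12 libraries, the calls were 11 in La/Li, 9 in Ov/Li, 7 in Bo/Li, 1 in Ov/La, 8 in Bo/La, 6 in Bo/Ov and 10 over the 4 leaf types. With the block and only the 6 libraries of La/Li, 6 were called. The Ov/La call of ptc-miR6457a was made with and without the block in the fit of 12 libraries. In the fit of the 6 La and Ov libraries alone it was made only with the block (1 call against 0).

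Leaving out 1 library gave 8 to 11 calls in La/Li, 6 to 10 in Ov/Li, 5 to 9 in Bo/Li (5 without Li2, Bo1 or Bo2), 0 to 5 in Ov/La, 4 to 8 in Bo/La (4 without Bo1 or Bo3), 4 to 7 in Bo/Ov and 7 to 13 over the 4 leaf types (7 without Bo2). Scaling by RLE factors (median ratios to a reference library) lowered the median Bo/Li difference of all tested miRNAs from 0.09 to -0.11 on the log2 scale. Under it the uncalled Bo/Li difference of ptc-miR6425a-5p turned to -0.073 and that of ptc-miR6462e to -0.15. Uncalled Bo/Li differences that changed sign when 1 library was left out ranged from -1.91 to 0.55 (without Li3) for ptc-miR1447, -0.85 to 1.15 for ptc-miR6425a-3p, -0.36 to 0.53 for ptc-miR6425a-5p, -0.46 to 0.054 for ptc-miR6430 and -0.51 to 0.76 for ptc-miR6462e. The cause was not tested.

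Of 479 Bo/Li values of named miRNAs, 437 kept sign and side of the threshold. The planned count model was not run, because the low values per library were too few to take the recovered reads as counts. Depth limits the 27 miRNAs with fewer than 100 reads in all. Pooled read ratios without a library are given for some of the ratios only, and were chosen after seeing the data.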

Other observations

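ptc-miR6421-3p, whose level in La1, La3 and Ov3 was far below that of the other libraries, was compared with the other tested miRNAs over the 12 libraries on the log2(RPM + 1) scale. The most similar pattern was that of ptc-miR7813 (Pearson r = 0.88, n = 12), which is also a high-numbered miRNA, with 47 reads in all. The next was ptc-miR476a (r = 0.84, n = 12), which was at 1138, 374 and 831 RPM in Li, 301, 1093 and 141 RPM in La, 691, 850 and 179 RPM in Ov and 1278, 1362 and 615 RPM in Bo. La1, La3 and Ov3 were thus the lowest 3 libraries of ptc-miR476a too, at 141 to 301 RPM. The most opposite was ptc-miR7827 (r = -0.75, n = 12), which had 5 reads, all in La1, La2, La3 and Ov3. These values describe libraries that share depth and scaling, and were chosen after the values of ptc-miR6421-3p were seen.

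The ratio of the 3p to the 5p arm of ptc-miR6427 was 1.54, 1.69 and 2.29 in Li, 2.85, 2.83 and 3.78 in La, 3.91, 2.86 and 2.92 in Ov and 2.88, 2.51 and 1.74 in Bo. All La and Ov libraries were above all Li libraries, while Bo overlapped with Li through Bo3. The difference of this ratio between leaf types was not tested.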
